A study of Homo sapiens with 6 samples.

Results

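The 46 genes described here encode proteins that chromosome segregation depends on, and they were read in OCI-AML3 cells with and without Vorinostat. They were chosen by name for their roles, as 19 proteins of the centromere and kinetochore, 9 of the spindle checkpoint, 8 mitotic kinases with their partner proteins, and 10 proteins of the spindle and of cytokinesis. All 46 had at least 1 probe set that names that gene alone, among 19775 genes so read on the array. OCI-AML3 is an established human acute myeloid leukaemia line that carries a mutation of NPM1, and Vorinostat, also called SAHA, inhibits histone deacetylases. The 3 control samples received DMSO, the solvent of the drug, and the 3 treated samples received 1 μM Vorinostat, in both cases for 24 h. Total RNA was hybridised to Affymetrix HG-U133 Plus 2.0 arrays, and each group is numbered 1, 2 and 3 by replicate.

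The kinetochore is the protein assembly built on each centromere to which the microtubules of the spindle attach. The spindle checkpoint holds back the separation of sister chromatids until every kinetochore is attached, Aurora and Polo kinases drive entry into mitosis and correct faulty attachments, and kinesins and bundling proteins shape the spindle and the cleavage furrow. Most of these genes are transcribed mainly in G2 and M phase, so their RNA is known as a mark of proliferating cells. In RNA of a whole culture, fewer dividing cells and less of this RNA per cell cannot be told apart.

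With Vorinostat, 42 of the 46 genes had a lower mean than with DMSO and 4 had a higher one. The median difference was -0.56 on the log2 scale, with a range from -1.55 for BUB1B, a checkpoint kinase, to 0.58 for CENPW, an inner kinetochore protein. Without DMSO replicate 1 the median of the 46 genes was 0.29, without both number 1 arrays it was -0.32, and after quantile normalisation of the 6 arrays it was -0.31. Over all 19775 genes the median difference was -0.02 and 10502 were lower. Genes with a mean of at least 3 had a median of -0.23, with 2325 of 3379 lower. For 12 housekeeping genes the median was -0.59, with all 12 lower, so a lower mean was not particular to the mitotic genes. The spread between arrays of a group was wide, and no gene passed an adjusted p under 0.05 in limma (0% of all genes), with 0 of the 46 among them. The study called genes at a change of more than 2-fold and an unadjusted p below 0.05, and at this threshold 1 of the 46 genes was lower, CENPM, against 0.0506% of all genes. None of the 46 was higher at that threshold, against 0.0455% of all genes. Whatever the fold, 1 of the 46 was lower at an unadjusted p under 0.05 in limma, against 0.389% of all genes, and 0 were higher, against 0.602%. The methods' t-test also called CENPM at the threshold. With the replicate number as a block, 2 of the 46 were lower, CENPM and TTK, against 0.632% of all genes, and 0 were higher, against 0.197%. With the block, 7 of the 46 were lower at an unadjusted p under 0.05 whatever the fold, against 3.12% of all genes, and the lowest adjusted p of any of the 46 was 0.887.

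The direction depended on the replicate number, which was taken to pair the arrays although numbers 2 and 3 are not told apart by the data. Directions within numbers 2 and 3, and counts over all 3 numbers, hold for this pairing only. The other matching of numbers 2 and 3 was not run. Within number 1, 42 of the 46 genes were lower with Vorinostat, with a median difference of -1.10 (log2). Within number 2, 42 were lower again, with a median of -0.53, while genes with a mean of at least 3 had a median of -0.73 there, with 2879 of 3379 lower. Within number 3, 19 were lower and 27 higher, with a median of 0.12. Over 2-fold lower were 25 of the 46 genes in number 1, against 5.56% of all genes, 13 in number 2, against 7.58%, and 0 in number 3, against 1.37%. Vorinostat was below DMSO in all 3 numbers for 17 of the 46 genes, against 13.7% of all genes, and above DMSO in all 3 for 0 of them, against 13%. All 3 Vorinostat arrays lay below all 3 DMSO arrays for 2 of the 46 genes, CENPM and CENPI, against 1.95% of all genes.

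**Figure D1:**
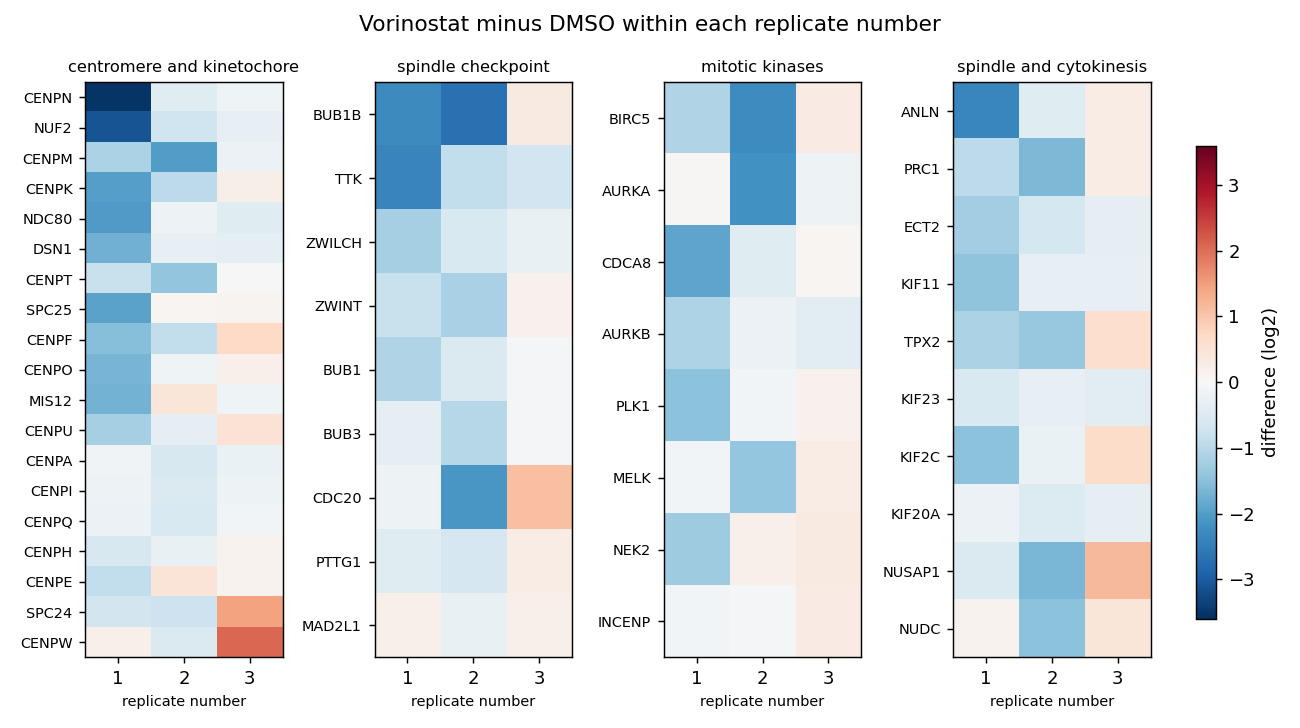
Vorinostat minus DMSO (log2, colour scale) within replicate numbers 1, 2 and 3 (columns) for the 46 genes (rows), in 4 panels by role and in order of the mean difference. Number 1 is mostly blue, with 42 genes lower, and number 3 is mixed, with 19 lower and 27 higher.

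Signal differed between the arrays, and the differences above have to be read beside it. Of all genes, 27.7% lay above a log2 value of 3 on DMSO replicate 1, 13.1% on DMSO replicate 2 and 9.50% on DMSO replicate 3, and 26.2%, 9.30% and 11.5% on the Vorinostat arrays 1, 2 and 3. The number 1 arrays were therefore alike in signal, while in number 2 the DMSO array and in number 3 the Vorinostat array held more. For 12 housekeeping genes the median difference was -0.01 in number 1, -1.67 in number 2 and -0.10 in number 3. The part of array signal in the differences of the mitotic genes was not tested. After quantile normalisation of the 6 arrays their medians were -0.58, -0.52 and -0.03 in numbers 1, 2 and 3, with 39, 36 and 25 of 46 lower. On that scale the housekeeping genes had medians of 0.01, -0.76 and -0.10, and genes with a mean of at least 3 had 0.00, -0.37 and 0.06. The GAPDH control probe sets at the 3′ end exceeded those at the 5′ end by 0.99 to 4.02 (log2), most on DMSO replicate 3. Those of ACTB did so by 2.70 to 4.51, most on DMSO replicate 1, and the part of RNA quality in the differences was not tested. Markers of myeloid leukaemia cells were read above 3 for 7, 4 and 4 of 12 genes on the DMSO arrays and for 7, 3 and 4 on the Vorinostat arrays, and MPO was at 1.76 to 2.76 on all 6. Of 12 markers of other cell types, 0 to 2 lay above 3 on any array, the highest at 5.00 on Vorinostat replicate 1.

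The median value of the mitotic genes was highest on the number 1 arrays of both groups. It was 5.89, 2.69 and 2.34 (log2) on the DMSO arrays 1, 2 and 3 and 4.28, 2.11 and 2.30 on the Vorinostat arrays. Above a value of 3 lay 40, 17 and 9 of the 46 genes with DMSO and 31, 11 and 14 with Vorinostat. On all 6 arrays 8 genes were above 3, namely CENPW, ZWINT, PTTG1, AURKA, BIRC5, PRC1, NUSAP1 and NUDC, and 6 genes were above it on no array, namely CENPA, CENPH, CENPI, CENPQ, INCENP and KIF23. Among the 25 genes with a mean of at least 3, 12 were over 2-fold lower in number 1, against 13.4% of all genes of that level, and 11 in number 2, against 38.7%. Only 5 of these 25 (20.0%) were lower in every number, against 19.5% of genes of that level, a share near the background. CENPE, CENPK, NUF2, ZWILCH, TTK, CDCA8, KIF11 and ANLN reached a mean of 3 only through DMSO replicate 1. NUF2, ZWILCH, TTK and KIF11 are among the 5 lower in every number. The count in number 1 and that over every number are thus in part fixed by the level, and nothing is read from them.

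**Figure D2:**
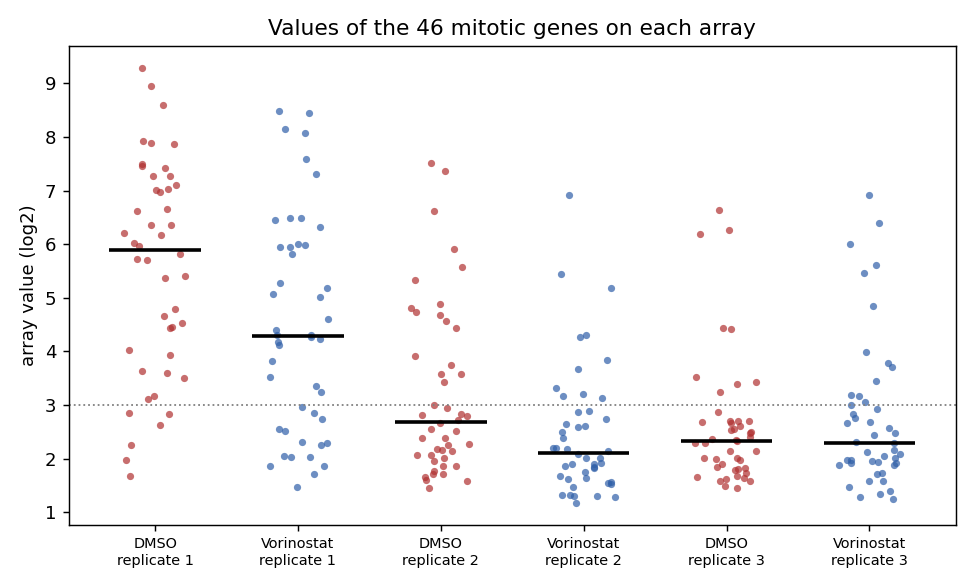
Array values (log2) of the 46 genes on each of the 6 arrays, with a point for each gene, a bar at the median and a dotted line at 3. The medians fall from 5.89 on DMSO replicate 1 to 2.11 on Vorinostat replicate 2, and within number 1 the Vorinostat median is 4.28.

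Promoters of genes of this class often hold a CHR element (cell cycle genes homology region), bound by the DREAM and MuvB complexes, and CCAAT boxes, bound by NF-Y. RefSeq windows (GRCh38.p14) from 250 bases before to 50 bases after a gene's start were matched by symbol to 39 of the 46 genes, which have 44 windows. Those not matched were BUB3, CENPM, TPX2, BIRC5, CENPH, AURKA and TTK. The CHR was searched as TTTGAA or TTCGAA and the CCAAT box as CCAAT, on both strands. A CHR match lay in 24 of the 44 windows (54.5%), compared with 16.4% of all 35116 windows and 13.7% of the 22198 windows of protein-coding genes. A CCAAT match lay in 32 (72.7%), compared with 34.6% of all windows, and both motifs lay in 18 (40.9%), compared with 6.38%. Among genes lower in every replicate number 9 of 16 windows (56.2%) held a CHR match, and among the others 15 of 28 (53.6%). A match is a description of these letters and not a site of binding.

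Printed below are the windows of 4 genes that were lower in every number and have a CHR match and 1 window, those with the lowest differences, and that of CENPW, the gene with the highest difference. They were chosen after the values were seen. The windows are those of CENPN (chr16:81006964-81007263), NUF2 (chr1:163321704-163322003), NDC80 (chr18:2571307-2571606), KIF11 (chr10:92592880-92593179) and CENPW (chr6:126339865-126340164), all on the plus strand of GRCh38.p14 and written 5′ to 3′. Capitals mark CHR and CCAAT matches, and in NDC80 2 CHR matches adjoin.
CENPN: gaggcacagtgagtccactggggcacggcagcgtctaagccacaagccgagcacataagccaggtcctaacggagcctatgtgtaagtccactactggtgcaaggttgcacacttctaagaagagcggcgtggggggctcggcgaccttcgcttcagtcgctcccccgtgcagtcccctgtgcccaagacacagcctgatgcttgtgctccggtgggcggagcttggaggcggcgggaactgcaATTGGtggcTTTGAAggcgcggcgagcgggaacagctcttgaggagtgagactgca
NUF2: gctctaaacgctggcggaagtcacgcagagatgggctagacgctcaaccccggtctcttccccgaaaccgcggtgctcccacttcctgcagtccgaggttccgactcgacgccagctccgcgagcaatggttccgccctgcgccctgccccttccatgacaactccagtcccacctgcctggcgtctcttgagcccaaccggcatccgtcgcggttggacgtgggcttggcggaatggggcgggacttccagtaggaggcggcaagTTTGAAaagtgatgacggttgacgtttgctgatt
NDC80: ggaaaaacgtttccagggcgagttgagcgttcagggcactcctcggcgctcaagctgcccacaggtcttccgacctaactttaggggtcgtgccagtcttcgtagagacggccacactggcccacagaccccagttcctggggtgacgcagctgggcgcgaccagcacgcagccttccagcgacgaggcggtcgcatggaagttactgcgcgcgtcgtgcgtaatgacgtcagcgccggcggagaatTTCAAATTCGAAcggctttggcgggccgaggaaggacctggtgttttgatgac
KIF11: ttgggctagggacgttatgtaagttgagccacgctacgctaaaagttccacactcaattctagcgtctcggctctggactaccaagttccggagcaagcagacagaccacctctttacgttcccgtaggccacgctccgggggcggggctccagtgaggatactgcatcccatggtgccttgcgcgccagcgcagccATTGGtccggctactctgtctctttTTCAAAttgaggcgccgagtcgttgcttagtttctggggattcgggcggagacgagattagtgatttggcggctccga
CENPW: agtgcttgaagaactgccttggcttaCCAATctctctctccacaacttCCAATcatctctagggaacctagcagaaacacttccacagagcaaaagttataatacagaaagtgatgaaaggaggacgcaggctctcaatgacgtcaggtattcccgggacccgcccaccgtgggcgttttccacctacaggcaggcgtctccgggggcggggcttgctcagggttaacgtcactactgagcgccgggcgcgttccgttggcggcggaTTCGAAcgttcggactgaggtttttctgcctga
In each of these windows the CHR match stands near the start of the gene. CENPW holds one too, but the 4 lower genes were picked for holding one, so nothing is read from this.

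The 19 centromere and kinetochore genes had a median difference of -0.55 (log2), with medians of -1.21, -0.51 and 0.02 in numbers 1, 2 and 3, and 8 were lower in every number. CENPM, a GTPase-like protein of the constitutive network that stays on centromeres throughout the cell cycle, was the gene past the threshold of the study. It was at 3.17, 3.58 and 2.69 on the DMSO arrays 1, 2 and 3 and at 2.03, 1.56 and 2.47 on the Vorinostat arrays. The groups did not overlap, although DMSO replicate 3 and Vorinostat replicate 3 lay 0.22 apart and most values were low on the scale of the array. The means were 3.15 ± 0.44 with DMSO and 2.02 ± 0.46 with Vorinostat (SD, n = 3 each). The difference was -1.12 with a standard error of 0.33 in limma, with an unadjusted p of 0.0160 and an adjusted p of 1. The differences by number were -1.13, -2.02 and -0.22. CENPM was no longer past the threshold without DMSO replicate 2 (difference -0.91) or Vorinostat replicate 2 (-0.89), or after quantile normalisation (-1.21, unadjusted p = 0.0723 in limma). CENPI, of the same network, was apart in its groups too, but at values from 1.47 to 2.01 and with a difference of -0.30 (unadjusted p = 0.0643 in limma).

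CENPT, which links the centromere to the outer kinetochore, was at 3.12, 2.72 and 2.14 with DMSO and at 2.31, 1.30 and 2.16 with Vorinostat. The Vorinostat arrays of numbers 1 and 2 were lower than their DMSO arrays and number 3 was level, and the groups overlapped. Its difference was -0.74 (standard error 0.37, unadjusted p = 0.101 in limma). CENPH, another protein of the network, was at 2.62, 2.17 and 1.85 with DMSO and at 2.04, 1.90 and 1.96 with Vorinostat. All 6 of its values were below 3, the groups overlapped and the difference was -0.25 (unadjusted p = 0.29 in limma), on a probe set whose type can share sequence with other genes. The study lists CENPT, CENPH, NDC80, TTK and ANLN as decreasing on these same samples, so their direction here is not independent evidence. None of them passed the threshold of the study here in the fit without the block. CENPM, which passed it here, is not on the study's list of decreasing genes.

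CENPN, which reads the CENPA nucleosome, had the lowest difference of any of the 46 genes within a number. It was at 6.03, 2.07 and 2.02 with DMSO and at 2.51, 1.62 and 1.88 with Vorinostat. It was lower by 3.52 in number 1 and by 0.45 and 0.15 in the others, so the mean difference of -1.37 rested mostly on number 1. Its other 3 probe sets had mean values near 2 or below and differences from -0.31 to -0.06. CENPW stood at the other end of the list, at 7.88, 4.82 and 3.40 with DMSO and at 8.07, 4.31 and 5.46 with Vorinostat. It was higher in numbers 1 and 3 and lower in number 2, and its difference of 0.58 had a standard error of 1.49 (unadjusted p = 0.711 in limma). Without the number 3 arrays the difference of CENPW was -0.16.

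Among the other genes of the network, the differences were -0.90 for CENPK, -0.55 for CENPO, -0.35 for CENPU and -0.28 for CENPQ, all lower in numbers 1 and 2. The 10 genes of the network had a median of -0.45, and 4 of them were lower in every number. CENPA, the histone H3 variant that marks centromeric chromatin, was below 3 on all arrays and had a difference of -0.30. CENPE, a kinesin motor of the kinetochore, had -0.10.

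CENPF, a large coiled-coil protein that couples kinetochores to dynein, was at 7.86, 3.75 and 2.29 with DMSO and at 6.32, 2.87 and 3.004 with Vorinostat. It was lower in numbers 1 and 2 and higher in number 3, with differences of -1.54, -0.87 and 0.71. The mean difference of -0.57 had a standard error of 1.73 in limma, and the spread between arrays of a group exceeded it.

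The outer kinetochore was described by the NDC80 complex, the main microtubule-binding unit, and the MIS12 complex below it. The 4 genes of the NDC80 complex had a median difference of -0.73, and -1.98 within number 1. NDC80 itself was at 6.17, 1.72 and 2.00 with DMSO and at 4.13, 1.53 and 1.58 with Vorinostat. It was lower in every number, by 2.04 in number 1 and by 0.18 and 0.42 in the others, where all values were below 3. The difference was -0.88 (standard error 1.44, unadjusted p = 0.566 in limma, and 0.0984 with the replicate block). NUF2, its partner, was at 7.27, 2.39 and 2.32 with DMSO and at 4.17, 1.68 and 2.04 with Vorinostat. It too was lower in every number, with a gap of 3.10 in number 1 and a mean difference of -1.36. SPC25 was lower in number 1 only, by 1.92, and SPC24 had a mean difference of 0.01 with 1.44 more on the Vorinostat array in number 3. The MIS12 complex was represented by DSN1, at -0.80 and lower in every number, and by MIS12, at -0.47.

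**Figure D3:**
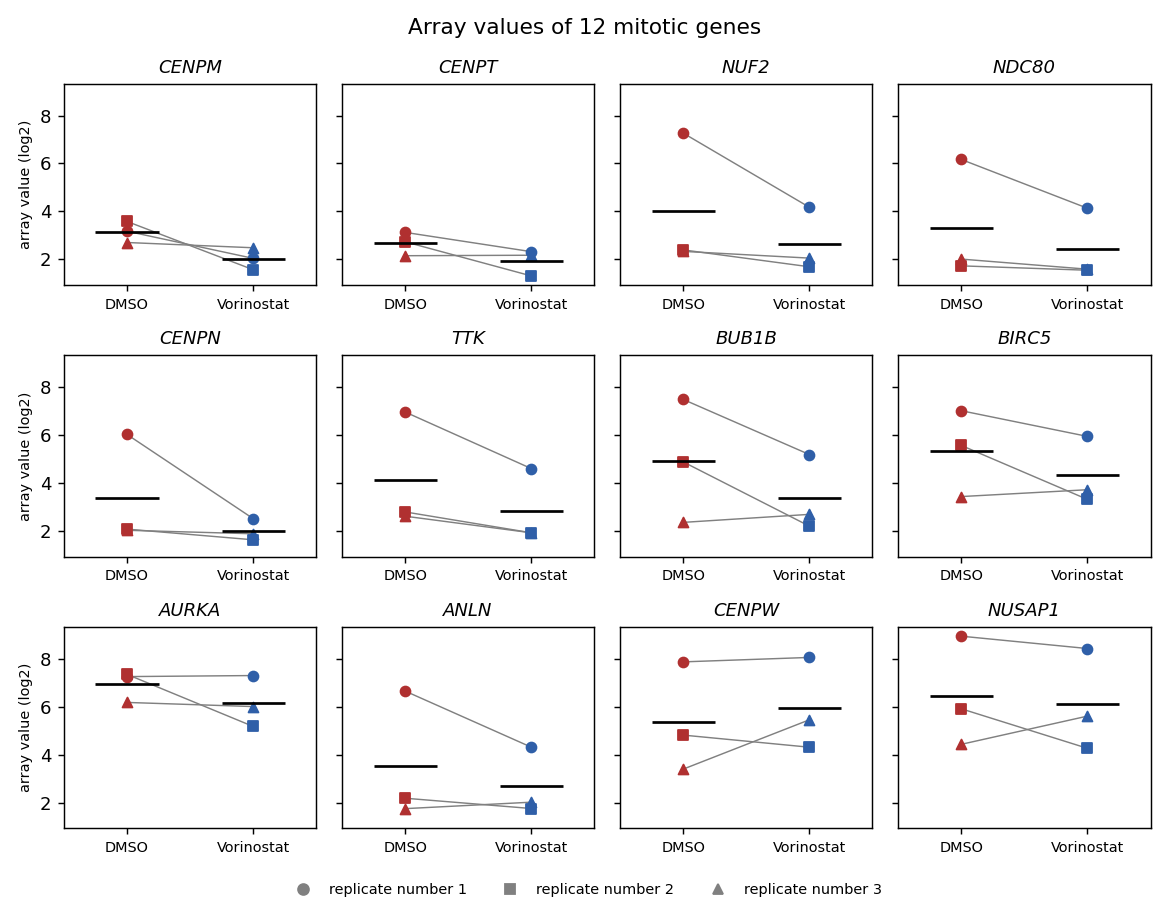
Array values (log2) of 12 of the mitotic genes with DMSO and Vorinostat, where symbols mark the replicate number, grey lines join arrays of 1 number and black bars are group means. For CENPN, NUF2, NDC80, TTK and ANLN DMSO replicate 1 lies far above the other DMSO arrays and number 1 has the widest gap, and CENPM is the gene without overlap between the groups.

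The 9 spindle checkpoint genes had a median difference of -0.56, with medians of -0.80, -0.87 and 0.14 in numbers 1, 2 and 3, and 4 were lower in every number. TTK, the MPS1 kinase that starts checkpoint signalling at unattached kinetochores, was at 6.97, 2.79 and 2.61 with DMSO and at 4.60, 1.92 and 1.92 with Vorinostat. It was lower in every number, by 2.37, 0.87 and 0.69, but Vorinostat replicate 1 lay above DMSO replicates 2 and 3. The difference was -1.31 with a standard error of 1.45 and an unadjusted p of 0.404 in limma. With the replicate block the standard error was 0.38 and the unadjusted p 0.0244, and with the block TTK passed the threshold of the study. Without DMSO replicate 1 the difference was 0.11, and without both number 1 arrays it was -0.78 (unadjusted p = 0.00318 in limma), under the 2-fold of the threshold.

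BUB1B, the kinase-like protein of the mitotic checkpoint complex, had the lowest mean difference of the 46 genes. It was at 7.49, 4.88 and 2.35 with DMSO and at 5.19, 2.20 and 2.69 with Vorinostat. It was lower by 2.30 and 2.69 in numbers 1 and 2 and higher by 0.34 in number 3. The mean difference of -1.55 (unadjusted p = 0.347 in limma) thus did not hold within every number of the pairing used. With Vorinostat replicates 2 and 3 exchanged, BUB1B would be lower in every pair. ZWINT, a scaffold between the kinetochore and the checkpoint complex of ZWILCH, was read well above 3 on every array. Its values were 9.29, 6.61 and 6.26 with DMSO and 8.49, 5.44 and 6.40 with Vorinostat. Numbers 1 and 2 were lower and number 3 was nearly level, for a mean difference of -0.61, which was -0.13 after quantile normalisation.

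The checkpoint genes BUB1, BUB3 and ZWILCH were lower in every number by their brightest probe sets, with mean differences of -0.56, -0.48 and -0.67. No other probe set of BUB3 or ZWILCH was lower in every number, and those of BUB1 were divided. MAD2L1, the inhibitor of the anaphase-promoting complex, had differences of 0.17, -0.27 and 0.19 and a mean of 0.03. CDC20, the activator of that complex which the checkpoint holds back, was at 6.61, 4.67 and 2.37 with DMSO and at 6.44, 2.59 and 3.46 with Vorinostat. Its differences were -0.17, -2.09 and 1.08, so the numbers disagreed in direction. PTTG1, or securin, which restrains separase, was at 8.59, 7.51 and 6.64 with DMSO and at 8.14, 6.91 and 6.91 with Vorinostat. The groups overlapped, the difference was -0.26 and after quantile normalisation it was 0.44.

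The 8 mitotic kinases and partner proteins had a median difference of -0.53, with medians of -1.09, -0.33 and 0.21 in numbers 1, 2 and 3, and AURKB was the only one lower in every number. AURKA, the Aurora kinase of spindle poles, was at 7.27, 7.36 and 6.18 with DMSO and at 7.31, 5.18 and 6.01 with Vorinostat. Number 1 was level, and the gap of 2.18 in number 2 gave most of the mean difference of -0.77 (standard error 0.63, unadjusted p = 0.271 in limma). Without Vorinostat replicate 1 the difference of AURKA was -1.34 at an unadjusted p of 0.0425 in limma. It was -0.28 without Vorinostat replicate 2, -0.06 without both number 2 arrays and -0.25 after quantile normalisation. Its other probe sets had differences of -0.28 and 0.09. The first of these, at a mean of 3.59, had -1.27, 0.37 and 0.07 in numbers 1, 2 and 3, a different pattern.

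AURKB, INCENP, BIRC5 and CDCA8 form the chromosomal passenger complex, which corrects attachments at the centromere and then acts in cytokinesis. BIRC5, or survivin, was at 7.02, 5.57 and 3.43 with DMSO and at 5.95, 3.31 and 3.72 with Vorinostat. It was lower by 1.07 and 2.26 in numbers 1 and 2 and higher by 0.29 in number 3, for a mean difference of -1.01 (standard error 1.14, unadjusted p = 0.412 in limma). Without DMSO replicate 1 the difference was -0.17, and without DMSO replicate 3 it was -1.97. A probe set of BIRC5 next in level had -2.44, -0.65 and 0.67. The differences were -0.75 for CDCA8, -0.58 for AURKB and 0.04 for INCENP, whose 6 values were all below 3. AURKB was lower by 1.10, 0.21 and 0.42 in the 3 numbers.

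PLK1, the Polo kinase of mitotic entry, had a mean difference of -0.48, with 1.48 less in number 1 and 0.15 more in number 3. NEK2, a kinase of centrosome separation, had -0.26, and number 1 was the only one in which it was lower by its brightest probe set. MELK had -0.41, with a gap of 1.40 in number 2 and 0.11 in number 1. By their brightest probe sets, the kinases differed among themselves in which number carried the lower value. Probe sets of the same gene, AURKA or BIRC5, differed in this as well, so no difference between kinases is read from it.

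The 10 spindle and cytokinesis genes were all lower in mean, from -0.84 for ANLN to -0.31 for NUDC, with a median of -0.52. By number their medians were -1.04, -0.55 and 0.27, and 4 were lower in every number. ANLN, the anillin scaffold of the cleavage furrow, was at 6.66, 2.18 and 1.74 with DMSO and at 4.31, 1.75 and 2.01 with Vorinostat. The number 1 arrays differed by 2.35 and the others were below 3, so the difference of -0.84 had a standard error of 1.52 (unadjusted p = 0.605 in limma). A dimmer probe set of ANLN had a mean difference of 0.19, of the opposite sign. ECT2, the exchange factor that activates RHOA at the furrow, was lower by 1.26, 0.62 and 0.31, for a mean of -0.73 (unadjusted p = 0.502 in limma, and 0.0258 with the replicate block).

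The kinesins KIF11, KIF20A and KIF23 were lower in every number. KIF11, the motor that pushes spindle poles apart, was at 7.46, 1.61 and 1.68 with DMSO and at 6.01, 1.30 and 1.39 with Vorinostat. Its value was high on the number 1 arrays of both groups and below 2 on the rest, and the difference was -0.68. KIF20A and KIF23, motors of the central spindle, had -0.34 and -0.41, with unadjusted p of 0.0336 and 0.0180 in limma with the replicate block. KIF2C, which depolymerises microtubules, had -0.35 and was higher by 0.67 in number 3.

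PRC1, which bundles the central spindle, had a mean difference of -0.76, and TPX2, the activator of AURKA on the spindle, -0.63. PRC1 was lower by 0.94 and 1.61 and TPX2 by 1.15 and 1.35 in numbers 1 and 2, and both were higher in number 3. NUSAP1, a microtubule-bundling protein, was at 8.96, 5.92 and 4.43 with DMSO and at 8.44, 4.27 and 5.61 with Vorinostat. Its differences of -0.52, -1.65 and 1.18 had a mean of -0.33, which was 0.33 in the other direction without the number 2 arrays. NUDC, a co-chaperone of dynein regulators, was at 6.37, 5.33 and 4.43 with DMSO and at 6.48, 3.85 and 4.85 with Vorinostat. By this probe set NUDC was lower in number 2 only, and its mean of -0.31 became 0.27 without the number 2 arrays.

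Other genes of the same pathways, 72 measured of 77 listed, had a median difference of -0.37, with 64 of the 72 lower. By number their medians were -0.77, -0.32 and 0.04. Lower in every number were 20 of the 72 (27.8%), against 13.7% of all genes. SGO1, a protector of centromeric cohesion, was the only one higher in every number, against 13% of all genes. None passed the threshold of the study in either fit. At an unadjusted p under 0.05 in limma with the replicate block 6 were lower, against 3.12% of all genes. PMF1, a MIS12 complex subunit, was the only one whose groups did not overlap, against 1.95% of all genes with Vorinostat below DMSO. Its difference was -0.27, at low values from 1.44 to 1.97, and the study lists it as decreasing on these same samples. SGO1 and PMF1 were named after their values were seen.

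**Figure D4:**
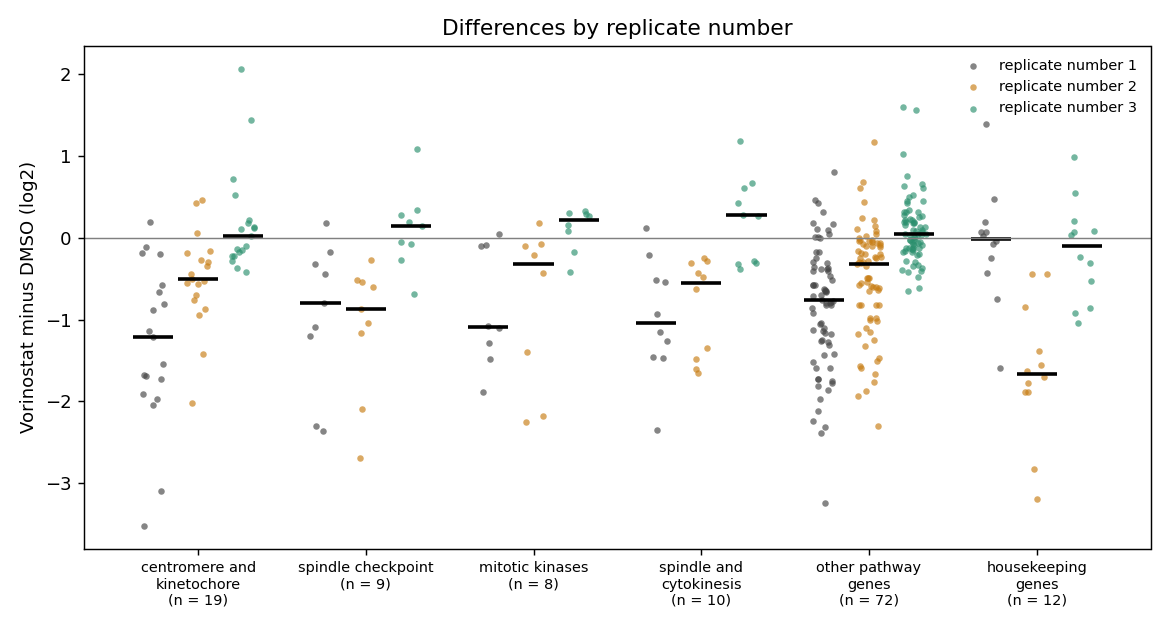
Vorinostat minus DMSO (log2) for each gene of the 4 roles, of the 72 other pathway genes and of 12 housekeeping genes, by replicate number, with a bar at each median. In number 1 the 4 roles have medians from -1.21 to -0.80 and the housekeeping genes -0.01, and in number 2 the housekeeping genes have the lowest median, -1.67.

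Of the 46 genes, 21 had more than 1 probe set, which gave 40 further probe sets beside the one with the highest mean. In 9 genes, 10 of these had a difference of the opposite sign, most of them at means near 2 or below. Genes were counted as lower in every number by the brightest probe set. No other probe set of AURKB, BUB3, CENPN, KIF23 or ZWILCH was lower in every number, those of BUB1 and CENPI were divided, and those of ECT2 were. Of genes not so counted, CENPF, CENPU, NEK2 and NUDC had a dimmer probe set that was lower in every number. The probe sets of CENPA, CENPH, PTTG1 and NUDC are of a type that can share sequence with other genes, so their values are less certain.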

How the data were processed

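Total RNA of OCI-AML3 cells (3 DMSO, 3 Vorinostat) was hybridised to Affymetrix HG-U133 Plus 2.0 arrays. The table that the authors deposited gives log2 signals for 54675 probe sets. They imported the arrays into Partek Genomics Suite. MAS5 and RMA appear in the submitters' processing notes, without a version or a stated role. Background correction and centring are not given in the sources used here, and the upper part of the distributions differs between arrays. The number of arrays limits the precision.

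Without the 62 control probe sets, 54613 entered the fit. Each gene was read by its brightest probe set by the mean of the 6 arrays, taken from those that GEO's platform annotation assigns to 1 gene. Vorinostat was compared with DMSO in limma 3.58.1 (R 4.3.3; lmFit and eBayes) with Benjamini-Hochberg adjustment over every probe set in the fit. The fit was tested on simulated data with independent noise and no array effect. That is unlike these arrays, so the test covers the computation only. Standard errors are those of limma. An exact two-sided permutation test of 3 arrays against 3 cannot go below 0.1, so none is given. The study's threshold asks for more than 2-fold and an unadjusted p below 0.05. Values below a mean of 3 (log2) were called dim, and no detection call was used. Whether the samples are separate cultures is not given in the sources used here, and the p-values cover only the spread among these 6 samples, possibly a technical one.

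Deviations from the group means correlated over probe sets between samples of the same number, at 0.874, 0.599 and 0.672 for numbers 1, 2 and 3. The value for number 1 shows that its arrays stood apart from the rest alike in both groups. Deviations within a group cancel, so positive values among the other arrays can follow from number 1 alone. DMSO replicate 3 and Vorinostat replicate 2 correlated at 0.695, above the same-number values of both. DMSO replicate 2 and Vorinostat replicate 3 correlated at 0.594. These correlations are thus no evidence for matching within numbers 2 and 3, which they do not tell apart. Pairing by replicate number was an assumption. Differences within these numbers, counts over every number and the fit with the replicate block all rest on this pairing.

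The members and lists were chosen with earlier results of these data known. Values array by array were planned for genes past the study's threshold in either fit, genes whose groups did not overlap with a difference of means of at least 0.5, the 2 genes with the highest mean in each role, and 5 genes that the study lists as decreasing. These were 14 genes (CENPF, CENPH, CENPM, CENPT, CENPW, NDC80, ZWINT, TTK, AURKA, BIRC5, PTTG1, ANLN, NUSAP1 and NUDC), and array values of others were added after they were seen. Alternatives were the replicate block, quantile normalisation, median centring, the methods' t-test, the mean of all probe sets of a gene, a filter on dim probe sets, each replicate left out in turn and both arrays of a number left out.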

Additional observations from a re-analysis of the deposited data

How the results depend on the processing

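The count of genes lower at the threshold of the study was 1 of 46. It was 2 with the replicate block, 0 after quantile normalisation, 0 without the number 1 arrays, 0 without the number 2 arrays, and 0 of 25 among probe sets with a mean of at least 3, which leaves CENPM out. With each replicate left out in turn it ranged from 0 to 2, and the count of higher genes was 0 under every alternative run. The 17 genes lower in every number became 19 after quantile normalisation and 19 with the mean of all probe sets of a gene. Among probe sets with a mean of at least 3 the count was 5 of 25, under a filter that DMSO replicate 1 in part decides. The count was 38 without the number 3 arrays and 18 to 38 with each replicate left out in turn. Both of these are over the 2 remaining numbers only, so they cannot fall below 17 and are no check on it. The replicate block changed the call of TTK and of no other of the 14 planned genes. Leaving out DMSO replicate 1 alone turned the median of the 46 genes and of each role, while without both number 1 arrays these were -0.32 for the 46 genes, -0.30 for the centromere and kinetochore, -0.50 for the checkpoint, -0.25 for the kinases and -0.35 for the spindle and cytokinesis genes. With each replicate left out in turn, the median of the 46 genes ranged from -1.22 to 0.29, that of the centromere and kinetochore from -0.998 to 0.012, the checkpoint from -1.53 to 0.52, the kinases from -1.21 to 0.13 and the spindle and cytokinesis genes from -1.46 to 0.50. The same ranges were -1.74 to 1.05 for CENPF, -1.74 to 0.55 for NDC80, -1.46 to 0.34 for ZWINT, -2.21 to 0.11 for TTK, -0.73 to 0.25 for PTTG1, -1.73 to 0.73 for ANLN, -1.50 to 0.93 for NUSAP1, -1.03 to 0.29 for NUDC and -0.48 to 1.84 for CENPW. For AURKA and BIRC5 the ranges were -1.34 to -0.28 and -1.97 to -0.17. After quantile normalisation PTTG1 was 0.44, CENPW 0.88 (unadjusted p = 0.0487 in limma), CENPF -0.28, NUSAP1 -0.07, NUDC -0.08, the median of the 46 genes -0.31 and that of the centromere and kinetochore -0.28. NUSAP1 was 0.33 and NUDC 0.27 without the number 2 arrays, and CENPW was -0.16 without the number 3 arrays, both settings chosen after seeing the data. The causes were not tested. Scaling moved the median of all genes, as distinct from that of the 46, by no more than 0.02 (log2), but most of these genes were dim. In number 2, quantile normalisation moved the median of genes with a mean of at least 3 from -0.73 to -0.37. That of the housekeeping genes moved from -1.67 to -0.76. Low signal over background on the number 2 and 3 arrays limits what the dim genes can show.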
